A study of Mus musculus with 44 samples.

Results

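WT-only CTCF peaks are the sites at which CTCF was listed in WT embryonic stem cells (ESCs) but not in ESCs that had lost *Setdb1*, the gene of a histone methyltransferase that deposits H3K9me3. They were chosen by the deposited lists themselves: an autosomal peak of the WT list with no base in common with any peak of the *Setdb1* KO list. Of 43284 autosomal WT peaks 1412 met this rule, or 3.26% (95% Wilson interval 3.10 to 3.43), and the other 41872 are called shared. Another 13 such peaks on X and Y and 1 on an unplaced contig were left out. Both lists come from TT2 ESCs, an F1 line of C57BL/6 and CBA, crosslinked and precipitated with an antibody to CTCF, and 1 list per condition was analysed. The labels name a further CTCF sample of each condition, which was not analysed here. WT cells are of a single clone, 33#6. The conditional *Setdb1* KO was induced with 800 nM 4-OHT for 4 days and the cells were taken on day 6, and the methods name no separate line for it. With 1 library per condition the conditions could not be tested against each other, the intervals below cover counting error only, and the peaks of a library are not replicates. The 4-OHT treatment and the deletion cannot be told apart in these lists, because the WT label names no treatment.

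CTCF is a zinc finger protein that reads a long GC-rich motif, stops cohesin and thereby anchors chromatin loops and insulates neighbouring genes. SINE B2 retrotransposons carry copies of the CTCF motif, and their spread placed CTCF sites at many positions in the mouse genome.

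The sequences below lie within 50 bp of the WT summit, on the plus strand of mm10 (GRCm38), and were taken, with their values known, from the 10 peaks and the 10 protein-coding promoter peaks with the most fragments to show each kind of sequence. The first 5 hold a CTCF motif, whose 14 bp core is in capitals, and of these *Gne* and *Smim26* lie wholly in repeat-masked sequence. The next 2 are CpG-dense promoters with no motif, with each CpG in capitals. The last 3 hold neither and have no capitals. Their best CTCF scores were 1.97, -3.53 and 11.1 bits, in the order shown, so that of *Cacna2d2* lies close to the motif limit of 12.1 bits. They show kinds of sequence in the class: a clear motif in unique sequence, a motif within a repeat, GC-rich promoters and sequence without either. They do not show how frequent each kind is. The sequences come from peaks of 21 to 34 fragments, where the median of all WT-only peaks was 15. A motif was found in 16.1% of all WT-only peaks. Several of those shown lie on chromosome 8, which held 102 of the 1412 WT-only peaks.
*Khdrbs3* intron, chr15:68945226-68945326: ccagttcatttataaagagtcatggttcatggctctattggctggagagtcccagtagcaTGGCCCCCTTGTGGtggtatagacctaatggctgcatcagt
Intergenic near *Maf*, chr8:115402965-115403065: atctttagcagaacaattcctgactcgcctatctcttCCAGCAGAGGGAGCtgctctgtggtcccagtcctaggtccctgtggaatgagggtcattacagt
*Rnf122* promoter, chr8:31111523-31111623: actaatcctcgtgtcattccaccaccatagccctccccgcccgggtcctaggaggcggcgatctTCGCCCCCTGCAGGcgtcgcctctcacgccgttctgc
*Gne* promoter, chr4:44085103-44085203: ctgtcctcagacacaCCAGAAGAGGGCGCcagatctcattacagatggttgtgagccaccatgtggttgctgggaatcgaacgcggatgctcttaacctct
*Smim26* promoter, chr2:144593204-144593304: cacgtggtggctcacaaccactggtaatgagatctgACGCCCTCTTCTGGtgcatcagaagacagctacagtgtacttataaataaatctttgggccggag
*Zbtb42* promoter, chr12:112678531-112678631: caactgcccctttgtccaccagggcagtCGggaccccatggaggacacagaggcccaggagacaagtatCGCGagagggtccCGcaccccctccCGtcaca
*Raet1e* promoter, chr10:22158478-22158578: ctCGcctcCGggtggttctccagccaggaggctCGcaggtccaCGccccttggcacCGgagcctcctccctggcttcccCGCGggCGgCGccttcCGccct
Intergenic near *Enpp6*, chr8:46962749-46962849: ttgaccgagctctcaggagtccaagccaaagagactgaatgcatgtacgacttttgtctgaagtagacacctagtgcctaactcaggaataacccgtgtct
*Cdh13* intron, chr8:118443467-118443567: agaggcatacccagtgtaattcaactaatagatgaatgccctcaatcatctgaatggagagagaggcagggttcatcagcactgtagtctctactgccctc
*Cacna2d2* intron, chr9:107486045-107486145: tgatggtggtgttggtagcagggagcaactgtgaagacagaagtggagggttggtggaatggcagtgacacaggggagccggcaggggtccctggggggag

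WT-only peaks sat at the bottom of the WT list. Their median pileup, the number of fragments over the summit, was 15, with quartiles of 13 and 17, where shared WT peaks had a median of 38. Only 147 WT-only peaks had 20 fragments or more, only 26 had 25 or more and only 5 had 30 or more. By contrast 48.6% of shared peaks had 40 or more. The WT-only peaks were also short, with a median length of 214 bp against 350 bp, and their median fold enrichment over the background set by the peak caller was 4.51 against 9.69. These values come from the contrast that chose the peaks and are given as a description.

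The WT-only share of WT peaks dropped steeply with pileup. It was 47.7% (41.2 to 54.3) below 12 fragments, 28.2% at 13, 19.6% at 15, 10.4% at 17 and 4.07% at 20. Between 25 and 29 fragments it was 0.534%, and from 40 fragments on it was 0.00984%, or 2 of 20332 peaks. In regions with the lowest background, the WT list held peaks from 9 fragments and the *Setdb1* KO list from 8. From that background the depth works out at 27.4 M tags for WT and 27.6 M for *Setdb1* KO. At shared sites weighted to the WT pileups of the WT-only peaks, the *Setdb1* KO library held a median of 24 fragments, 1.60 times the WT number, with quartiles of 1.27 and 2.07. Among those sites 5.76% had fewer fragments in *Setdb1* KO than in WT. Each of these sites overlaps a listed *Setdb1* KO peak, so sites too weak in *Setdb1* KO to be listed are left out. Below 12 fragments this left out 47.7% of WT peaks. The ratio of 1.60 is therefore raised and the 5.76% lowered by the selection, by an amount that was not measured. Neither value shows a general gain at sites of such WT pileups. At higher WT pileups fewer peaks were left out: 0.534% from 25 to 29 fragments, 0.0459% from 30 to 39 and 0.00984% from 40 on. The median ratio of *Setdb1* KO to WT pileup at the shared sites there was 1.448, 1.441 and 1.299. Fewer fragments in *Setdb1* KO than in WT were found at 9.67%, 7.36% and 5.93% of them. Whether the ratio at low WT pileups would be similar without the selection was not tested. The *Setdb1* KO list gives no value at the WT-only sites, so the size of any decrease there was not measured.

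**Figure D1:**
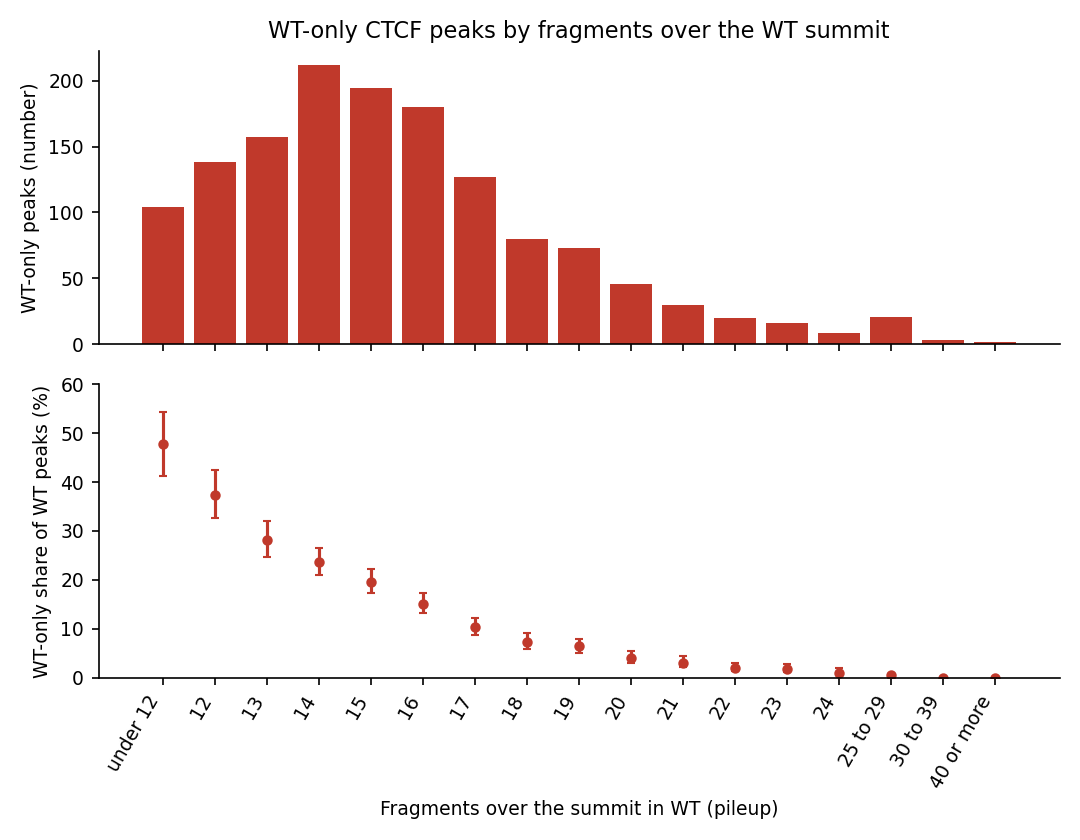
Number of WT-only CTCF peaks (top) and their share of all autosomal WT peaks in percent (bottom) by the number of fragments over the WT summit (horizontal axis), with Wilson 95% intervals as error bars. The share drops from 47.7% below 12 fragments to 4.07% at 20, and 2 peaks remain from 40 fragments on.

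Because sequence and place also vary with pileup, shared peaks of the same pileup below are shared WT peaks weighted to the pileups of the WT-only peaks. Shared peaks had passed the listing limit in both libraries and WT-only peaks in 1, and the part of this selection in each difference was not tested. For 3 WT-only peaks no shared peak of that pileup exists.

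The CTCF motif was less frequent in WT-only peaks than in shared peaks of equal pileup. A motif within 50 bp of the summit was found in 227 WT-only peaks, or 16.1% (14.3 to 18.1). Shared peaks of the same pileup held it in 32.6%, a difference of -16.5 points (95% interval -18.8 to -14.2), and all shared peaks in 64.6%. A motif was called when the best score of a matrix, built from the 1000 shared WT peaks with the highest -log10 q, passed the 99th percentile of control windows, each 1 kb from a summit toward the start of the chromosome. The matrix thus comes from shared peaks alone. With the 95th percentile as the limit, 38.0% of WT-only peaks and 52.7% of shared peaks of the same pileup held a motif. The contrast was present at each level of pileup: 10.1% against 23.9% below 15 fragments, 20.5% against 37.3% from 15 to 19, and 21.1% against 47.1% from 20 on. It was also present outside repeats, with 151 of 1162 peaks against 24.9%, and inside them, with 30.4% against 48.6%. With a reciprocal overlap of 50% as the rule the difference shrank to -3.38 points over 4863 peaks.

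Where a WT-only peak held a motif, the motif scored lower. The mean score was 14.9 bits in the 227 WT-only peaks and 16.0 in shared peaks of the same pileup, a difference of -1.06 (-1.33 to -0.794). Its centre lay on average 19.4 bp from the summit against 18.6 bp, with an interval of the difference that includes 0 (-0.772 to 2.35). With a reciprocal overlap of 50% the score difference turned to 0.272 (0.154 to 0.390). The most frequent base at each position of the core gave the strings below, with and without weighting of the shared motifs to the same pileup. Such strings do not show how close the shares of the bases are. At position 5, A stood in 37.0% of WT-only motifs and 37.3% of all shared motifs, although the strings differ there. At position 8, A stood in 44.9% and 53.5%, and at position 13, G stood in 44.1% and 50.8%. Scores and bases were not compared separately for repeat-masked and other summits, so the part of repeats in these differences was not tested.
WT-only core: CCAGCAGGGGGCAC
Shared WT core, same pileup: CCAGAAGAGGGCAC
Shared WT core, all: CCAGAAGAGGGCGC

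CpG at position 2 of the core, counted from 1 at its 5′ end, was more frequent in the motifs of WT-only peaks. It was present in 16 of 227, or 7.05% (4.38 to 11.1), against 2.86% in shared peaks of the same pileup, a difference of 4.19 points (0.778 to 7.59). All shared motifs held it in 5.19%. The shared cores above hold AGAAGAGGGC, with A after position 2, and such a core has no CpG there. That string was found in 4.53% of WT-only peaks and 12.9% of shared peaks of the same pileup. In 98.4% and 99.1% of these it lay in repeat-masked sequence. CpG at position 2 was not compared outside repeats, and the part of repeats in the difference was not tested. Under the reciprocal rule the difference turned to -0.946 points (-1.75 to -0.141), and with no *Setdb1* KO summit within 100 bp it was 1.71 (-0.253 to 3.68). At position 12 the shares were 28.6% and 29.9%, a difference of -1.28 points (-7.50 to 4.93). The WT-only peak with CpG at position 2 and the most fragments, 27, lies in an intron of *Trp73*, which encodes a member of the p53 family, at chr4:154089270-154089541, and its core reads CCGGCAGGGGGCAC. This core also had the highest score of all WT-only peaks, 20.7 bits. Another 3 of the cores, at *Psmd11*, *Clcn2* and *Rhbdd2*, lie within 1 kb of a protein-coding start. *Psmd11* encodes a subunit of the proteasome lid and the core in the peak at chr11:80428344-80428529 reads CCGCGAGATGGCGA. *Clcn2* encodes a chloride channel and the core in the peak at chr16:20716211-20716499 reads GCGGCAGGGGGCGC. These cores were chosen after their values were seen.

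**Figure D2:**
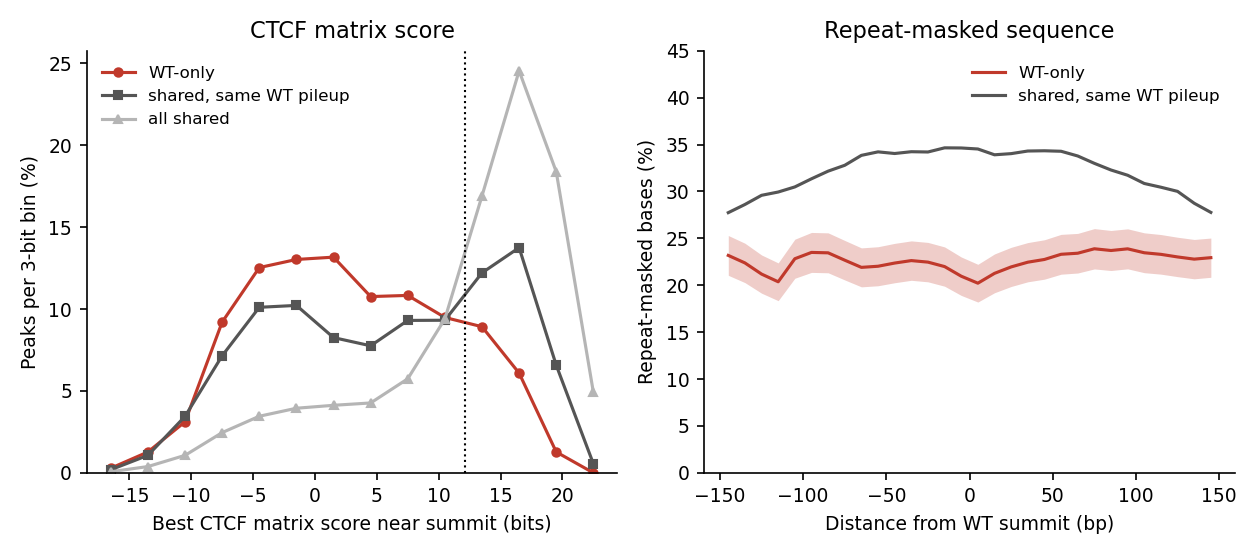
Left, percent of peaks (vertical axis) by best CTCF matrix score within 50 bp of the summit in bits (horizontal axis), for WT-only peaks, shared WT peaks weighted to the same WT pileup and all shared WT peaks, with the motif limit as a dotted line. Right, percent of repeat-masked bases by distance from the WT summit in bp, with the 95% interval of WT-only peaks shaded: 5 bp before the summit the lines stand at 21.0% and 34.6%.

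WT-only peaks were also depleted of repeats. A repeat-masked summit, with the majority of bases around it masked, was found in 250 of them, or 17.7% (15.8 to 19.8), against 33.3% of shared peaks of the same pileup and 24.7% of all shared peaks. The difference from shared peaks of the same pileup was -15.6 points (-17.96 to -13.2). As a mean share of masked bases within 100 bp of the summit, the values were 22.5% and 33.6%, a difference of -11.1 points (-12.8 to -9.27). In the control windows beside the same summits, 26.5% and 27.5% of bases were masked, a difference of -0.991 points (-2.70 to 0.716), so no such contrast was detectable 1 kb away. The contrast in repeat-masked summits was present below 15 fragments (15.2% against 32.9%) and from 20 fragments on (19.7% against 32.5%). Under the rule of a reciprocal overlap of 50% it turned to 1.60 points (0.0909 to 3.10).

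Among 6-letter words the larger differences were deficits in WT-only peaks. Of 2080 words, each counted with its reverse complement within 50 bp of the summit, 14 were lower by over 5 points in WT-only peaks and 0 were higher by as much. The 5 with the largest deficits were AGAGGG, with 16.3% against 29.5%, GAGGGC (12.8% against 25.2%), AAGAGG (12.4% against 23.7%), AGAAGA (12.7% against 23.2%) and CTCTTC (14.3% against 24.5%). Read on 1 strand these 5 words follow each other base by base and join to the 10-letter string AGAAGAGGGC. This string is part of both shared cores shown above and stands in capitals, in either orientation, in the *Gne* and *Smim26* sequences. It was found in 64 WT-only peaks, or 4.53% (3.57 to 5.75), in 12.9% of shared peaks of the same pileup and in 13.2% of all WT peaks. The match lay in repeat-masked sequence in 98.4% of those WT-only peaks and in 99.1% of those shared peaks. With a reciprocal overlap of 50% the difference turned to 1.49 points (0.359 to 2.63) for the string and 0.559 (-0.970 to 2.09) for AGAGGG. Repeat families were not annotated here, and the string was joined after the values of the words were seen.

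The 5 words with the largest excess were CCTGCC (14.4% against 9.49%), CCTGGC (13.95% against 9.20%), ACCCTG (10.6% against 7.28%), CCCCAG (13.4% against 10.2%) and AGGCTG (12.4% against 9.34%). None of these excesses passed 5 points. Among peaks with an unmasked summit the difference was 3.73 points for CCTGCC and -5.83 points for AGAGGG. With a reciprocal overlap of 50% that of CCTGCC was 0.892 (-0.0920 to 1.88).

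Of 17 motif words of other factors, CCAAT and the GC box were higher and the TG repeat and the GATA word lower in WT-only peaks, with intervals that leave out 0. CCAAT, the box bound by NF-Y, was found within 50 bp of the summit on either strand in 12.5% of WT-only peaks and 9.53% of shared peaks of the same pileup, a difference of 3.00 points (1.11 to 4.89). The control windows of the WT-only summits held it in 12.96%, so WT-only peaks had no more of it than the sequence beside them. The GC box GGGCGG of SP and KLF factors was found in 5.31% against 3.74% (difference 0.278 to 2.87), and in 2.69% of the control windows. In 13 of these 75 WT-only peaks it overlapped the core of a called CTCF motif. TGTGTGTG, a run of TG repeats, was rarer in WT-only peaks, with 1.204% against 3.20% (-2.77 to -1.21), as was AGATAA of GATA factors, with 2.34% against 3.33% (-1.93 to -0.0489). The control windows of the WT-only summits held TGTGTGTG in 4.32% and AGATAA in 5.74%, more than either group of peaks. TGACGTCA, the CRE of CREB and ATF factors, was found in 0 of 1412 WT-only peaks, which allows a share of up to 0.212%, a limit above the 0.0342% of shared peaks, so no difference was detectable. For the other 12 words the intervals of the difference include 0, and each is given with its share of WT-only peaks against that of shared peaks of the same pileup. They were CCGGAAG of ETS factors (0.779% against 0.812%), GCGCNTGCG of NRF1 (0.283% against 0.274%), AAGATGG of YY1 (2.55% against 2.27%) and CACGTG, the E-box of USF and MYC (1.35% against 1.82%). The next were TGANTCA of AP-1 (2.34% against 2.30%), ATGCAAA, the octamer of OCT4 (1.84% against 1.37%), CATTGT of SOX factors (4.04% against 3.86%) and TCAAGGTCA of ESRRB (0.212% against 0.210%). The last were TGCCGC of ZFP57 (2.34% against 1.98%), TTCNNNGAA of STAT3 (2.27% against 2.098%), GGAATG of TEAD factors (5.52% against 4.51%) and TATAAA, the TATA box (4.53% against 4.79%). Under the reciprocal rule the differences were 0.489 points for CCAAT, -0.0670 for the GC box and 0.382 for TGTGTGTG, with intervals that include 0. The interval of CCAAT also included 0 with a -log10 q of at least 5, and that of AGATAA under 5 of 7 other settings. A match to such letters is a description and not a bound site. Among all WT peaks CCAAT was found in 10.7%, the GC box in 4.15%, TGTGTGTG in 2.61% and AGATAA in 2.92%.

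GC content was slightly higher in WT-only peaks. Within 100 bp of the summit it was 49.7% against 48.0% in shared peaks of the same pileup, a difference of 1.74 points (1.26 to 2.21), and in the control windows it was 45.8% against 45.2%. Among unmasked summits the difference was 0.963 points (0.409 to 1.52), and with a reciprocal overlap of 50% it was 0.205 (-0.0429 to 0.453). CpG-dense sequence, with a GC content of at least 50% and an observed to expected CpG ratio of at least 0.6, was found in 91 WT-only peaks, or 6.44%, against 5.12%. The interval of that difference, -0.0949 to 2.75 points, includes 0. It left out 0 within 50 bp of the summit (0.445 to 3.63), with a -log10 q of at least 5 (0.184 to 3.85) and over all chromosomes (0.146 to 2.98).

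By place in genes, WT-only peaks lay more often inside protein-coding genes and less often between genes. A protein-coding gene covered 787 WT-only summits, or 55.7%, against 49.7% of shared peaks of the same pileup, a difference of 6.03 points (3.09 to 8.98). Introns held 627, or 44.4% against 39.9% (difference 1.60 to 7.45 points). Intergenic sequence held 476, or 33.7% against 39.8% (-8.89 to -3.25). Exons outside promoters held 82, or 5.81% against 4.76%, and coding exons 37, or 2.62% against 1.958%, and both intervals include 0 (-0.307 to 2.40 and -0.248 to 1.57 points). With peaks of repeat-masked summits left out, the intron difference was 6.79 points (3.48 to 10.1) and the intergenic difference -4.70 (-7.85 to -1.55). By pileup the intron difference was 7.33 points (2.57 to 12.1) below 15 fragments, 1.78 (-2.31 to 5.88) from 15 to 19 and 5.10 (-3.07 to 13.3) from 20 on, so its interval left out 0 in the weakest peaks alone. With a reciprocal overlap of 50% the differences were 2.25 points (0.622 to 3.88) for protein-coding genes, 1.60 for introns and -1.11 (-2.69 to 0.482) for intergenic sequence, and with a -log10 q of at least 5 the interval for introns was -1.08 to 6.34.

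**Figure D3:**
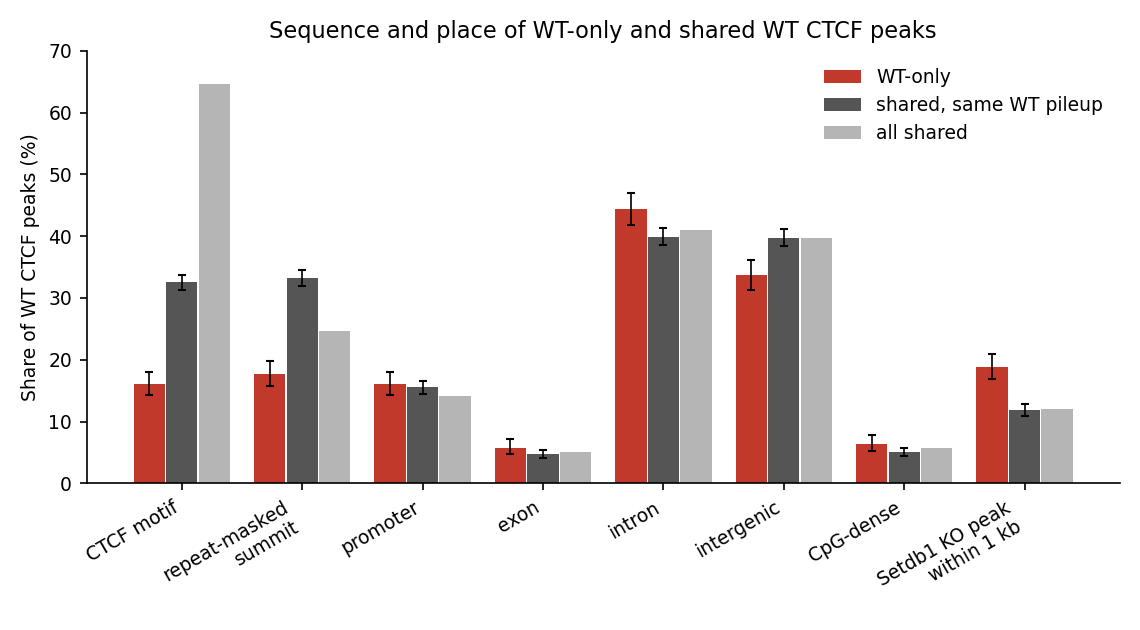
Percent of WT CTCF peaks (vertical axis) with each feature (horizontal axis) for WT-only peaks, for shared peaks weighted to the same WT pileup and for all shared peaks, with 95% intervals as error bars on the first and second bars of each group. The CTCF motif bars stand at 16.1%, 32.6% and 64.6%, and the promoter bars at 16.1%, 15.6% and 14.2%.

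Promoters, within 1 kb of any annotated transcription start, held 227 WT-only peaks, or 16.1% against 15.6%, a difference of 0.501 points (-1.68 to 2.68). Protein-coding promoters held 135, or 9.56% against 9.30% (-1.50 to 2.01), and promoters of long noncoding RNAs 37, or 2.62% against 2.91% (-1.25 to 0.684). No excess or deficit at promoters was therefore detectable with these numbers of peaks. The 135 peaks lay at 134 genes, 74 upstream of the start (54.8%) and 61 downstream, where 64.3% of 3299 shared promoter peaks of any pileup lay upstream. Their median distance from the start was 288 bp. Of these 59 were CpG-dense, or 43.7% against 37.7% in shared promoter peaks of the same pileup, with an interval of -3.42 to 15.3 points. The CTCF motif was found in 14, or 10.4% against 21.3%, a difference of -10.95 points (-17.1 to -4.75).

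The protein-coding promoters with the most WT fragments covered diverse functions. *Gadl1*, which encodes an amino acid decarboxylase, and *Rnf122*, which encodes a ubiquitin ligase of the RING type, each had a WT-only peak of 26 fragments, 841 bp and 247 bp upstream of the start. Their fold enrichments were 8.72 and 7.33, and the nearest *Setdb1* KO peaks lay 27.1 kb and 8.89 kb away. *Zbtb42*, the gene of a BTB zinc finger protein, had 24 fragments at 247 bp upstream. *Gne*, whose enzyme starts sialic acid synthesis, had 23 at 976 bp upstream, with a motif score of 19.7 bits in repeat-masked sequence. Peaks of 21 fragments lay 41 bp upstream of *Raet1e*, a gene for a ligand of the NKG2D receptor, and 140 bp downstream of the start of *Bend6*, a BEN domain gene. The other peaks of 21 fragments lay 800 bp upstream of *Smim26*, which encodes a small membrane protein, and 573 bp upstream of *Plekha7*, which encodes a protein of adherens junctions. At *Bend6* the nearest *Setdb1* KO peak, 14.2 kb away, held 116 fragments, and at *Plekha7*, 7.12 kb away, it held 14.

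Of the 10 WT-only peaks with the most fragments, the first 2 lay in regions of high background. The peak at chr17:39845734-39845951, at the promoter of the noncoding RNA gene *Gm26917*, had 226 fragments over a background of 148, a fold enrichment of 1.53, and a *Setdb1* KO peak of 374 fragments lay 180 bp away. The peak in an intron of *Trim50*, which encodes a ubiquitin ligase, had 46 fragments over a background of 23.0, in wholly repeat-masked sequence. The remaining 8 had backgrounds of at most 3.54 fragments. The highest were an intergenic peak 24.1 kb upstream of *Enpp6*, a gene for a choline phosphodiesterase, with 34 fragments at chr8:46962616-46963068, and a peak in *Khdrbs3*, which encodes a splicing regulator, with 33 fragments at chr15:68945023-68945488. The *Khdrbs3* peak had the highest fold enrichment of all WT-only peaks, 10.98, and a CTCF motif of 13.9 bits.

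An intergenic peak 304 kb from *Maf*, the gene of a bZIP transcription factor, had 32 fragments and a motif of 17.2 bits at chr8:115402870-115403198, with a *Setdb1* KO peak of 18 fragments 881 bp away. Peaks of 29 fragments lay in an exon of *Kdelr2*, which encodes a receptor that returns proteins to the endoplasmic reticulum, in an intron of *Cacna2d2*, which encodes an auxiliary calcium channel subunit, and in an intron of *Cdh13*, the T-cadherin gene. Peaks of 28 fragments lay in an intron of *Hivep3*, a zinc finger transcription factor gene, and at a promoter of *Trp53bp1*, whose product acts in repair of DNA breaks. Of these 10 peaks, 2 held a motif.

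A *Setdb1* KO peak lay beside WT-only peaks more often than beside shared ones, at short range and at low pileup. Within 1 kb, 265 WT-only peaks, or 18.8% (16.8 to 20.9), had a *Setdb1* KO peak that they did not overlap, against 11.9% of shared peaks of the same pileup with a second *Setdb1* KO peak, a difference of 6.90 points (4.65 to 9.15). Within 100 bp the shares were 4.82% and 0.395%. Within 10 kb they were 56.2% and 55.7%, a difference of 0.517 points (-2.42 to 3.45). The gap is part of the rule, since a peak counts as WT-only only where no *Setdb1* KO peak reaches it, so the short distances are a description. Of the 265 neighbouring *Setdb1* KO peaks, 227 overlapped another WT peak and 38 were in the *Setdb1* KO list only, and their median pileup was 62 where that of the WT-only peaks beside them was 14. By pileup the difference within 1 kb was 12.9 points (8.85 to 16.9) below 15 fragments, 3.53 (0.739 to 6.32) from 15 to 19 and -2.96 (-7.28 to 1.37) from 20 on. With a -log10 q of at least 5 in WT it was 1.66 points (-0.687 to 4.00). Another WT peak also lay within 1 kb of 16.4% of WT-only peaks against 11.8% of shared peaks of the same pileup. That difference was 4.57 points (2.41 to 6.74), so a neighbour within 1 kb was not particular to *Setdb1* KO peaks. Within 100 bp another WT peak lay beside 1.63% and 1.48%.

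By distance, and as a description, WT-only peaks close to a *Setdb1* KO peak held few motifs. The motif was found in 2.94% of the 68 peaks within 100 bp of a *Setdb1* KO peak, in 8.63% of the 197 from there to 1 kb, and in 18.3% of the 529 from there to 10 kb. The 157 peaks over 50 kb away held it in 19.7%. Promoters made up 22.1%, 19.3% and 17.8% of the first 3 classes and 8.28% of the last. With the peaks within 1 kb left out, the motif difference from shared peaks of the same pileup was -15.3 points (-17.8 to -12.8) and the repeat difference -15.1 (-17.7 to -12.6).

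**Figure D4:**
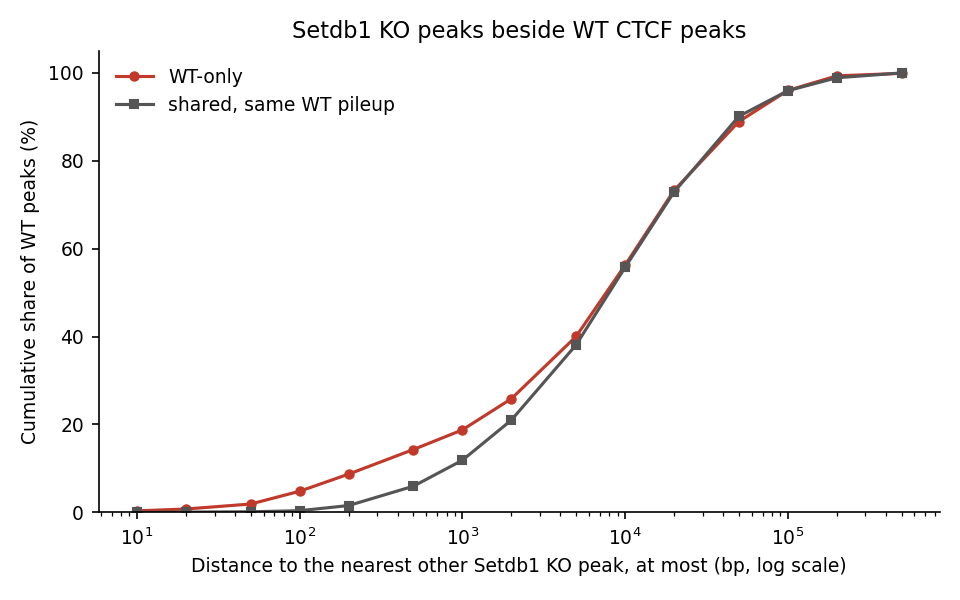
Cumulative percent of WT peaks (vertical axis) with another *Setdb1* KO peak at most the given distance away in bp (horizontal axis, log scale), for WT-only peaks and shared peaks weighted to the same WT pileup. The curves stand at 18.8% and 11.9% at 1 kb and at 56.2% and 55.7% at 10 kb.

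At the edge of the rule, the WT-only peaks with the smallest gaps touched or nearly touched a *Setdb1* KO peak. A peak in *Rora*, a nuclear receptor gene, with 12 fragments at chr9:68773531-68773716, abutted a *Setdb1* KO peak of 54 fragments with a gap of 0 bp. Gaps of 2 to 3 bp separated *Setdb1* KO peaks of 76, 13, 92 and 33 fragments from WT-only peaks in *Gse1*, in *Sh3pxd2a*, 2368 bp from the start of *Npm3* and in *Rbm20*, with 17, 15, 14 and 11 WT fragments. Just outside the rule, the shared WT peaks with the smallest overlaps lay near *Irf8* (1 bp), in *Cdkn2aipnl* (8 bp), at the promoter of *Krt19* (10 bp), near *Tbc1d1* (10 bp) and at the promoter of *Soga1* (11 bp). Their WT pileups were 14, 12, 11, 12 and 14, and those of the *Setdb1* KO peaks they met 35, 12, 20, 19 and 15. None of these 10 peaks held a CTCF motif.

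At the other extreme, 157 WT-only peaks, or 11.1%, lay over 50 kb from any *Setdb1* KO peak. The farthest, in an intron of *Lrp1b*, which encodes a giant receptor of the LDL receptor family, had 17 fragments at chr2:41879491-41879721 and lay 529 kb away. It held a motif of 12.7 bits. The next 2 lay 516 kb upstream of *Epha7*, an ephrin receptor gene, with 14 fragments and a gap of 511 kb, and 282 kb upstream of *Sema6d*, a semaphorin gene, with 19 fragments, a motif of 14.5 bits and a gap of 322 kb. Of the last 2, with 16 fragments each, one lay in intergenic sequence with *Ndufa4* as the nearest protein-coding gene. The other was a CpG-dense peak with a GC content of 77.6% at chr4:78211971-78212159, within 1 kb of the start of an annotated transcript of *Ptprd*, a receptor phosphatase gene, and within the noncoding RNA gene *B230208B08Rik*.

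Among the autosomes chromosome 8 stood apart when pileup was taken into account. It held 102 WT-only peaks of 2569 WT peaks, or 3.97% (3.28 to 4.80), where its pileups gave an expectation of 61.6, a ratio of 1.66. The ratios of the other autosomes lay between 0.795 and 1.24. The background that the peak caller set at shared peaks was also higher on chromosome 8 in both libraries, with a mean of 4.00 fragments in WT against 3.07 on the other autosomes, and 4.31 against 3.25 in *Setdb1* KO, or 1.305 and 1.33 times. With the expectation taken from -log10 q, which includes the background, the ratio was 1.16 and no longer the highest, since chromosome 19 had 1.22. The median ratio of *Setdb1* KO to WT pileup at shared sites was 1.38 on chromosome 8 and between 1.33 and 1.40 on the other autosomes. Of the 147 WT-only peaks with 20 fragments or more, 19 lay on chromosome 8, which held 2569 of 43284 autosomal WT peaks. Among these 19 were the peaks near *Enpp6* and *Maf* and in *Cdh13* described above. The ranking of peaks by fragments was not scaled to the background. The number of copies of the chromosome was not measured here. With chromosome 8 left out, the motif difference was -16.3 points and the repeat difference -15.2.

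**Figure D5:**
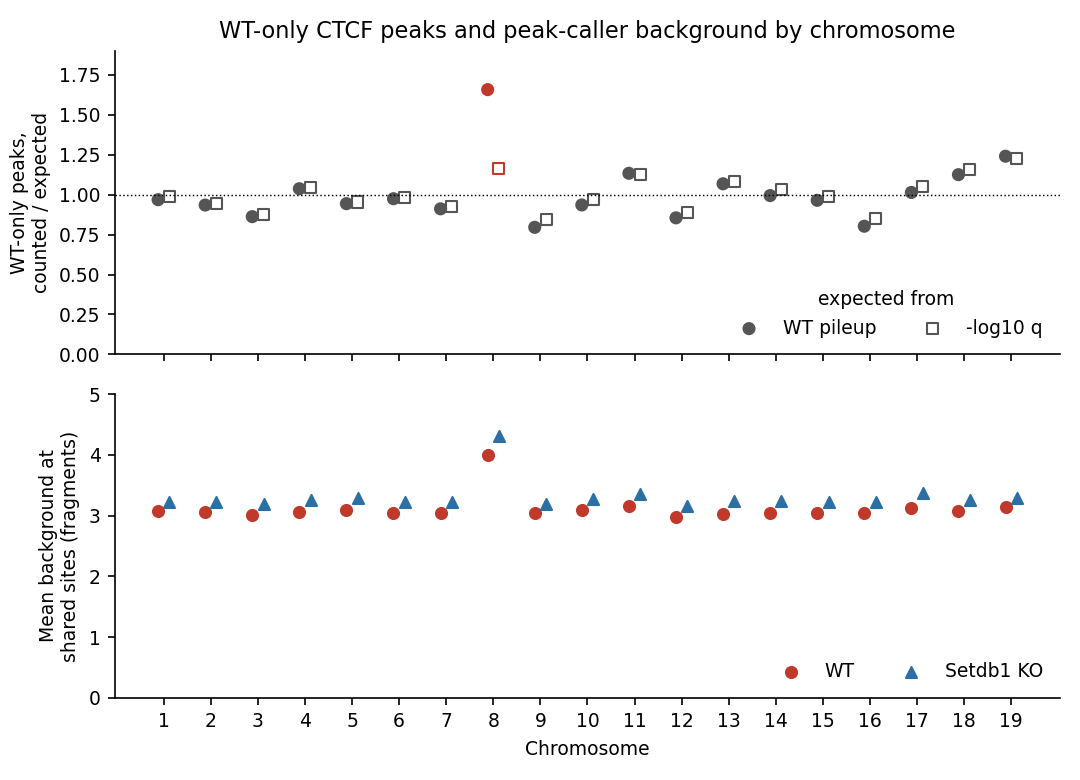
Top, number of WT-only peaks divided by the number expected from the WT pileup (filled) or the -log10 q (open) of the peaks of each autosome. Bottom, mean background in fragments at shared sites in the WT and *Setdb1* KO libraries. Chromosome 8 stands at 1.66 by pileup and 1.16 by -log10 q, with the highest background in both libraries.

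By percent alone, chromosome 19 held the largest share, 56 of 1284 WT peaks or 4.36% (3.37 to 5.62), and chromosome 9 the smallest, 66 of 2508 or 2.63% (2.07 to 3.33). Of 242 windows of 10 Mb with at least 50 WT peaks, the median WT-only share was 3.30%, and 6 windows held none where 1.77 to 3.21 were expected from their pileups. The highest share was on chromosome 18 from 20 to 30 Mb, with 10 WT-only peaks or 9.52% (5.26 to 16.6) and 4.64 expected. The next was on chromosome 3 from 150 to 160 Mb, with 9 of 99 or 9.09% (4.86 to 16.4). The window without a WT-only peak and with the most WT peaks, on chromosome 13 from 70 to 80 Mb, had 0 of 106, which allows a share of up to 2.83%. These were picked as the extremes of 242 windows.

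Within protein-coding genes WT-only peaks were mostly single. Of the genes with a WT-only summit 679 had 1, 52 had 2 and 4 had 3. *Asic2*, an acid-sensing ion channel gene of 1088 kb, had 4 of its 23 WT peaks. The genes with 3 were *Negr1*, a neuronal adhesion gene, *Rbfox1*, a splicing factor gene, *Slit3*, a guidance cue gene, and *Wdfy4*. The gene model *Gm20388*, which spans 4435 kb of chromosome 8, had 17 of 228 WT peaks, where 8.06 were expected from their pileups. For chromosome 8 as a whole that expectation was 61.6 against 102 counted, a ratio of 1.66 that was 1.16 by -log10 q. These genes were singled out after their counts were seen.

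None of the 15 gene lists held many WT-only peaks. With summits within 10 kb of a gene counted, *Zfp* zinc finger genes held 19 of 501 WT peaks, or 3.79% (2.44 to 5.85), where 18.1 were expected from pileup. Olfactory and vomeronasal receptor genes held 4 of 179 (5.89 expected) and cytoplasmic ribosomal protein genes 3 of 164 (3.69 expected). Trophectoderm genes held 3 of 31, or 9.68% (3.35 to 24.9), with 1.45 expected, and germ layer genes 2 of 29, with 1.24 expected. CTCF and cohesin genes and clustered protocadherin genes held 2 each, and pluripotency, imprinted, germline and H3K9 methylation genes 1 each. DNA methylation genes held 0 of 26, *Hox* genes 0 of 23 and replication-dependent histone genes 0 of 20, which allow shares of up to 11.5%, 13.04% and 15.0%. Genes of the 2-cell stage had 1 WT peak in all, which was shared. Over the whole list 3.26% of autosomal WT peaks were WT-only.

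The named members of these lists had at most 17 fragments at their WT-only peaks outside the ribosomal, *Zfp* and receptor genes. Among trophectoderm genes, *Tfap2c*, a transcription factor gene of the trophoblast, had 16 fragments at 3.65 kb upstream, *Tfap2a* had 14 within its promoter and *Eomes*, a T-box gene, had 12 at 7.29 kb upstream. Of the germ layer genes, *Bmp4*, the gene of a signalling ligand, had 16 fragments 1.22 kb upstream and *Gata4*, an endoderm and heart factor, had 12, with a *Setdb1* KO peak of 44 fragments 56 bp away. *Esrrb*, a nuclear receptor of the pluripotency network, had 1 WT-only peak of 12 fragments with a CTCF motif in an intron, beside 6 shared peaks. *Gnas*, an imprinted gene for a G protein subunit, had 17 fragments in an intron. *Stag1*, which encodes a cohesin subunit, had 16, *Ctcfl*, the germline paralogue of *Ctcf*, had 15, and *Cbx5*, which encodes HP1 alpha, had 15. *Brdt*, a bromodomain gene of the testis, had 13.

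Among ribosomal protein genes, *Rps15* had 20 fragments, *Rpl8* had 19 and *Rps29* 13, all with a CTCF motif. The first lies 273 bp upstream of *Apc2* and the next in an exon of *Zfp647*. The *Zfp* genes with the most fragments were *Zfp518b* and *Zfp667* with 22 each, *Zfp365* with 21 and *Zfp647* with 19, the last of these being the same peak as that of *Rpl8*. Receptor genes with the most were *Olfr142* and *Olfr1271*, which share a peak of 20 fragments 153 kb from the nearest *Setdb1* KO peak, *Olfr38* with 18 and *Olfr1123* with 14. Of the clustered protocadherin genes, *Pcdhb7* and *Pcdhb8* share a peak of 15 fragments, and *Pcdhb16* and *Pcdhb17* a peak of 14 that lies 44 bp from a *Setdb1* KO peak of 62. The peak of 14 is also counted for *Pcdhb18* and *Pcdhb19*, and *Pcdhb18* has the nearest protein-coding start, with the summit 523 bp upstream of it.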

How the data were processed

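CTCF ChIP-seq of WT and *Setdb1* KO ESCs was analysed from 1 deposited peak list per condition. Per the methods and processing notes, reads had been placed on mm10 (GRCm38) by Bowtie 1.2, unique hits with at most 3 mismatches, duplicates were marked and taken out by Picard, and MACS2 2.1.0 listed peaks at a q of 0.05. Whether input served as its control is not given in the sources used here. The deposited fold enrichment is the ratio of pileup to background after 1 is added to both. Significance is deposited as -log10 p and -log10 q. The deposited score repeats -log10 q on a larger whole-number scale, and the summit is an offset from the peak start.

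Pileup and background were solved from fold enrichment and p, which recovered the listed -log10 p to within 0.001 in 100% of peaks of both lists. Shared WT peaks were weighted to the WT-only peaks within strata of 1 fragment, with pileups of 60 or more joined. Intervals of shares are Wilson 95% intervals, and those of differences combine the variances of both sides. Places came from GENCODE vM21, sequence and repeat masking (lower case) from the RefSeq GRCm38 genome. Software was matplotlib 3.10.9, scipy 1.17.1, pandas 2.3.3 and numpy 2.4.6 under Python 3.11.15, and the comparison was tested on simulated data.

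The peaks, motif words and gene lists were chosen with earlier results of these data known. Named were the 10 WT-only peaks, and the 10 at protein-coding promoters, with the most fragments, the 5 nearest to and farthest from a *Setdb1* KO peak, the 5 shared peaks of smallest overlap, up to 4 genes a list, the extreme chromosomes and windows, every motif word and the 5 six-letter words of largest difference each way. The promoter peaks at *Afg3l2* and *Taf4b*, with 20 fragments each, complete that list of 10.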

Additional observations from a re-analysis of the deposited data

How the results depend on the processing

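The main differences of sequence, place and distance, and those of 7 words or strings, were recomputed under other rules. The alternatives for introns, intergenic sequence, protein-coding genes, motif score, CpG position 2 and the words were added after seeing the data. Coding exons, the other motif words and the remaining 6-letter words were not recomputed. A reciprocal overlap of 50% gave 4863 WT-only peaks, omission of any WT peak with a *Setdb1* KO summit within 100 bp gave 2545, and a -log10 q of at least 5 in WT gave 793. Under the reciprocal rule the repeat-masked difference reversed to 1.60 points, as did those of the motif score (0.272 bits), CpG at position 2 (-0.946), AGAAGAGGGC (1.49), AGAGGG (0.559), TGTGTGTG (0.382) and GGGCGG (-0.0670). The differences there were -3.38 for the CTCF motif, 0.205 for GC, -0.527 for CpG-dense sequence, -1.11 for intergenic sequence and 2.25 for protein-coding genes. Under the summit rule they were -19.8 for the motif and -10.1 for repeats. With a -log10 q of at least 5 they were 2.79 for promoters, 2.32 for GC and 1.66 for a *Setdb1* KO peak within 1 kb. With 10 groups by -log10 q in place of pileup the motif difference was -21.9. The cause of these shifts was not tested. The interval of the CpG-dense difference left out 0 under 3 alternatives, within 50 bp (2.04), -log10 q of at least 5 (2.02) and all chromosomes (1.56). Apart from these, the score difference of -0.570 under the summit rule and the words CCAAT (0.489) and CCTGCC (0.892) under the reciprocal rule, the other alternatives left the differences within the intervals reported, among them all chromosomes (1425 peaks), no *Setdb1* KO peak within 1 kb (1147 peaks) and the omission of chromosome 8, which was added after seeing the data. No paired analysis was possible because 1 CTCF peak list per condition was analysed. The *Setdb1* KO list holds no value at WT-only sites, so a decrease at single sites could not be measured.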
